A study of Homo sapiens with 6 samples.

Results

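The genes described here encode the DNA sliding clamp PCNA, the 5 subunits of its loader (RFC1, RFC2, RFC3, RFC4 and RFC5), 2 subunits of DNA polymerase delta (POLD1 and POLD3), the flap nuclease FEN1 and DNA ligase I (LIG1). They are 10 of the 56638 gene symbols in the count tables and were taken by symbol. They were chosen by their replication role with their log2 fold changes between METTL3-KO and WT already known, so these differences between METTL3-KO and WT cells are given as a description. No p-value is printed for them, calls at the threshold used for all genes are counted only to describe them, and nothing is drawn from their number or direction.

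RNA-seq read counts came from 6 libraries of HCT116, an established line of human colorectal cancer cells. WT is the unedited line (n = 3). METTL3-KO is the same line after disruption by CRISPR/Cas9 of METTL3, the catalytic subunit of the complex that writes N6-methyladenosine on mRNA (n = 3). The count files are named NC and SiM3 in place of these labels, which no source used here explains. The study also treated HCT116 cells with METTL3 siRNA or control siRNA. Whether the counts come from knockout or knockdown cells was not tested, so the groups and the word knockout rest on the labels and the study's methods. Both groups were grown in McCoy's medium with fetal bovine serum and carry the same range of passages. The study's methods describe lentiviral delivery, puromycin selection and a monoclonal line, so traits of that clone and the loss of METTL3 cannot be told apart. Nothing says that the samples of a group were separate cultures, and the p-values below then measure only the spread between these samples, which may be technical.

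During S phase the loader, a ring of 5 related ATPases, opens PCNA and closes it around DNA at the primer end. DNA polymerase delta then extends the lagging strand in short Okazaki fragments while it is tethered to PCNA. FEN1 removes the displaced 5′ flap and LIG1 seals the nick that remains, and both bind PCNA through a short peptide motif.

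METTL3 itself was at 30 ± 0.724 CPM in WT and 7.28 ± 0.400 CPM in METTL3-KO (mean ± SD, n = 3 each), where CPM is the TMM-scaled counts-per-million value. It fell by 2.04 ± 0.0906 (SE) on the log2 scale, with an adjusted p of 1.59e-07 in edgeR's quasi-likelihood test. Counts on genes were 20936091 to 30142144 per library. All 8 markers of colorectal epithelium were above 1 CPM in every library, and their summed level was 6100 to 7420 CPM in WT and 8050 to 8990 CPM in METTL3-KO. Most of that sum was KRT8 (3478 to 4491 CPM in WT and 4971 to 5655 CPM in METTL3-KO), while EPCAM overlapped between the groups (476 to 534 and 494 to 560 CPM). Markers of other cell types were low or absent for endothelium (0 to 0.0938 CPM summed in WT and 0.0663 to 0.182 CPM in METTL3-KO, with 0 of 4 at 1 CPM in every library) and fibroblasts (4.92 to 6.74 and 8.86 to 9.82 CPM, 1 of 6). The 5 leukocyte markers summed to 1010 to 1050 CPM in WT and 676 to 733 CPM in METTL3-KO, which was almost wholly LYZ, while the defining markers PTPRC and CD3E stayed under the count minimum. The part of these levels in the results below was not tested.

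An annotated start of each gene was read for short motifs known from cell cycle promoters, because E2F, NF-Y and the CHR-binding complexes time many cell cycle genes to S phase or to G2. RefSeq windows running from 250 bases before to 50 bases after the start were found for 9 of the 10 genes and located by exact match in GRCh37, the build of the counts. POLD3 had no entry. The first listed window of each gene was used, and other starts were not searched. For PCNA it was chr20:5100555-5100854, while the annotated gene begins at 5107272 on the minus strand. The windows of RFC5 and POLD1 also lay inside the gene, away from its annotated 5′ end. An E2F word (TTTCCCGC, TTTGGCGC, TTTCGCGC or TTTGCCGC, either strand) lay in 3 of the 9 windows against 3.31% of 35116 windows of the same length. The 3 stretches are shown because they hold the rarest of the motifs searched, each 5′ to 3′ on the strand of the gene with the E2F word in capitals.
PCNA, chr20:5100645-5100674, minus strand: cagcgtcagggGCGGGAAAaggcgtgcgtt
RFC3, chr13:34392220-34392249, plus strand: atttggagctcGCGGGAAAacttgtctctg
LIG1, chr19:48673697-48673726, minus strand: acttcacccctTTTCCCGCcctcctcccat
All 3 words were TTTCCCGC, which 1.63% of windows hold. It reads on the opposite strand in PCNA and RFC3, and its first base lay at -59, -55 and -114 from the start, where -1 is the base before it. In PCNA and LIG1 it overlapped a GC box (GGGCGG, first base at -61 and -110).

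The NF-Y word CCAAT, either strand, was in the windows of PCNA, RFC1 and RFC5, which is 3 of 9 against 34.6% of all windows. PCNA was the gene with 3 copies, with first bases at -152, -79 and -25, and the stretches around them are shown with the word or its complement in capitals.
PCNA, chr20:5100740-5100769, minus strand: tccggaatatccaCCAATggcgcaaatacg
PCNA, chr20:5100667-5100696, minus strand: tcgagaggcgcgcATTGGacggcagcgtca
PCNA, chr20:5100613-5100642, minus strand: agtgtgcgattagCCAATgggagctcccgc
A GC box was in 7 of 9 windows against 45.0% of all windows, and was not in those of RFC3 and FEN1. The CHR words TTTGAA and TTCGAA were in 0 of 9 against 16.4%. These matches are letters only, and binding was not measured.

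All 10 genes passed the count minimum, and their smallest count in any library was 413, for which counting error alone is 4.92%. In METTL3-KO 9 of the 10 were called lower (adjusted p under 0.05), while 13.2% of all 22452 genes tested were called lower and 13.3% higher. Every METTL3-KO library lay below every WT library for the same 9 genes, as for 20.7% of all genes tested. Among the 10320 genes with a mean above 3 on the log2 CPM scale, where all 10 lie, 20.7% were called lower and 27% were separated in that direction. Because these counts rest on the contrast that chose the genes, nothing is read from them. The log2 fold changes ran from -0.85 to -0.18 with a median of -0.51, beside a median of -0.02 over all genes tested. In bulk RNA, fewer cells in S phase and less of these RNAs per cell cannot be told apart.

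**Figure D1:**
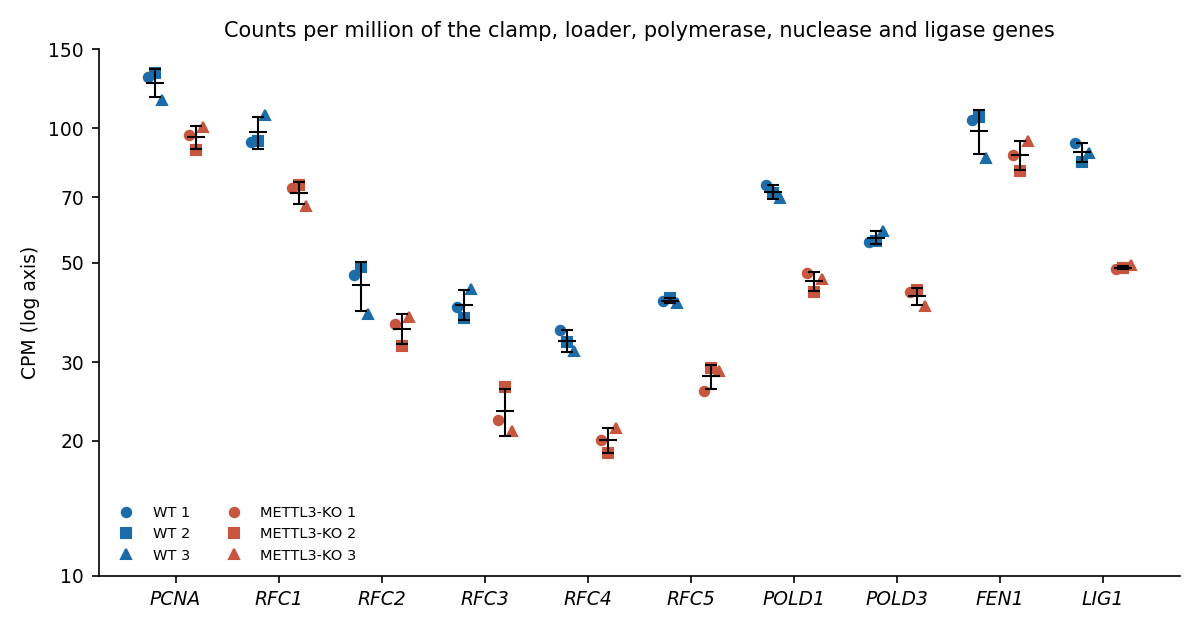
Level in CPM (log axis) of each of the 10 genes in every library, with WT in blue and METTL3-KO in red; the shape gives the library number, and horizontal bars with whiskers are the mean ± SD (n = 3). The groups are separate for 9 genes, and for FEN1 the lowest WT library (85.8 CPM) lies below the highest METTL3-KO library (93.4 CPM).

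PCNA, the clamp (chr20:5095599-5107272, minus strand), was at 130, 133 and 116 CPM in WT libraries 1 to 3 and at 96.6, 89.3 and 101 CPM in METTL3-KO libraries 1 to 3. The groups did not overlap, and library 3 was the lowest in WT and the highest in METTL3-KO. The difference was -0.40 ± 0.0801 on the log2 scale (± SE, as for all fold changes below), or 24.3% lower.

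The loader subunits differed in how far METTL3-KO lay below WT. RFC1, the large subunit (chr4:39289076-39367995, minus strand), was at 92.9, 93.4 and 107 CPM in WT and 73.6, 74.5 and 67.0 CPM in METTL3-KO, a log2 difference of -0.45 ± 0.0825. RFC3 (chr13:34392206-34540695, plus strand) showed the widest gap of the 5, with 39.7, 37.6 and 43.7 CPM in WT against 22.3, 26.4 and 21.1 CPM in METTL3-KO. Its log2 fold change of -0.79 ± 0.10 corresponds to a level 42.3% lower. Neither gene had overlapping groups, and both were highest in WT library 3 and lowest in METTL3-KO library 3.

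RFC4 (chr3:186507669-186524847, minus strand) was close to RFC3, with 35.4, 33.2 and 31.7 CPM in WT, 20.1, 18.8 and 21.3 CPM in METTL3-KO and a log2 fold change of -0.74 ± 0.0865. RFC5 (chr12:118451393-118470935, plus strand) had the tightest WT values of the family, 41.1, 41.8 and 40.6 CPM, against 25.9, 29.1 and 28.6 CPM in METTL3-KO. It was lower by 32.3%, at -0.56 ± 0.0794. RFC2 (chr7:73645829-73668788, minus strand) had the smallest gap, with 46.9, 48.8 and 38.4 CPM in WT and 36.4, 32.5 and 37.8 CPM in METTL3-KO, a log2 fold change of -0.33 ± 0.102. Its groups were separated by less than 1 CPM, between WT library 3 and METTL3-KO library 3, and its call was lost without library 1 or 2 of either group (log2 fold changes of -0.34 to -0.25).

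The summed level of the 5 loader subunits varied little between the libraries of a group. It was 256, 255 and 261 CPM in WT and 178, 181 and 176 CPM in METTL3-KO, with an SD of 3.50 CPM in WT and 2.76 CPM in METTL3-KO. The highest of the 5 levels per kilobase was 1.54 ± 0.282 times the lowest in WT and 2.12 ± 0.397 times in METTL3-KO, and the libraries overlapped (1.23 to 1.77 and 1.68 to 2.46). Per kilobase, PCNA was at 4.57 ± 0.265 times the mean of the 5 subunits in WT and 5.06 ± 0.281 times in METTL3-KO, where libraries also overlapped, with 4.79 as the highest WT ratio and 4.75 as the lowest METTL3-KO ratio.

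POLD1, the catalytic subunit of DNA polymerase delta (chr19:50887461-50921275, plus strand), was at 74.6, 71.7 and 69.7 CPM in WT and 47.5, 43.0 and 46.0 CPM in METTL3-KO. That is 36.8% lower, with a log2 fold change of -0.66 ± 0.0747. POLD3, an accessory subunit that carries a PCNA-binding motif (chr11:74204896-74380162, plus strand), was at 55.7, 55.8 and 59.0 CPM in WT and 42.9, 43.4 and 40.1 CPM in METTL3-KO, or 25.9% lower at -0.43 ± 0.0744. The groups of both genes were separate. The ratio of POLD1 to POLD3 per kilobase was 1.40 ± 0.0884 in WT and 1.19 ± 0.0906 in METTL3-KO, and the lowest WT ratio (1.30) lay above the highest METTL3-KO ratio (1.27). These ratios use transcript length. With coding length POLD1 was the lower gene in WT, at 21.7 CPM per kilobase against 40.7 for POLD3.

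LIG1 and FEN1, which complete the same step, were at the opposite ends of the 10 differences. LIG1 (chr19:48618702-48673860, minus strand) was at 92.8, 84.1 and 87.8 CPM in WT and 48.5, 48.6 and 49.3 CPM in METTL3-KO. It was 44.7% lower, with a log2 fold change of -0.85 ± 0.0724. FEN1 (chr11:61560383-61564710, plus strand) was at 104, 106 and 85.8 CPM in WT and 87.1, 80.4 and 93.4 CPM in METTL3-KO. Its groups overlapped and the gene was not called, at -0.18 ± 0.0943. Per kilobase, the ratio of FEN1 to LIG1 was 1.51 to 1.95 in the WT libraries and 2.56 to 2.94 in the METTL3-KO libraries, with means of 1.74 ± 0.221 and 2.76 ± 0.187.

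The FEN1 value moved with single libraries in both directions. It was nearer to 0 without WT library 2 (-0.12), METTL3-KO library 2 (-0.13) or WT library 1 (-0.14), and farther from 0 without METTL3-KO library 3 (-0.23). Without WT library 3 the log2 fold change was -0.27 and the gene was called, and without both libraries numbered 3 it was -0.33 and called.

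To set the genes beside each other, CPM were divided by the length of the principal transcript. PCNA was the most abundant, at 98.8 ± 7.09 CPM per kilobase in WT and 74.9 ± 4.52 in METTL3-KO. FEN1 followed at 49.0 ± 5.57 and 43.1 ± 3.23 CPM per kilobase, and LIG1 at 28.2 ± 1.40 and 15.6 ± 0.145. The WT ranges of PCNA, FEN1 and LIG1 did not overlap, and all 3 METTL3-KO values of LIG1 lay under its lowest WT value.

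The other genes were within a narrower band of WT levels per kilobase. RFC2 (26.5 ± 3.31) overlapped with LIG1 above it and with RFC4 (24.5 ± 1.38) below it. POLD1 (21.0 ± 0.718), RFC1 (20.1 ± 1.65) and RFC5 (19.6 ± 0.276) overlapped as neighbours, while RFC4 lay above POLD1, RFC5 above RFC3 (17.5 ± 1.32) and RFC3 above POLD3 (15 ± 0.496) in every WT library. PCNA was 6.58 times as abundant as POLD3 on this scale in WT. PCNA and FEN1 remained the first and the second with coding length or with all annotated exons, but LIG1 moved to rank 7 and to rank 10, and POLD3 to rank 4 with coding length. Other orders also turned on the length. With all exons the WT mean of POLD1 (14.6) lay above RFC4 (11.2), and RFC3 (14.1) above RFC5 (12.7). With coding length POLD3 (40.7) lay above RFC3 (37.8).

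**Figure D2:**
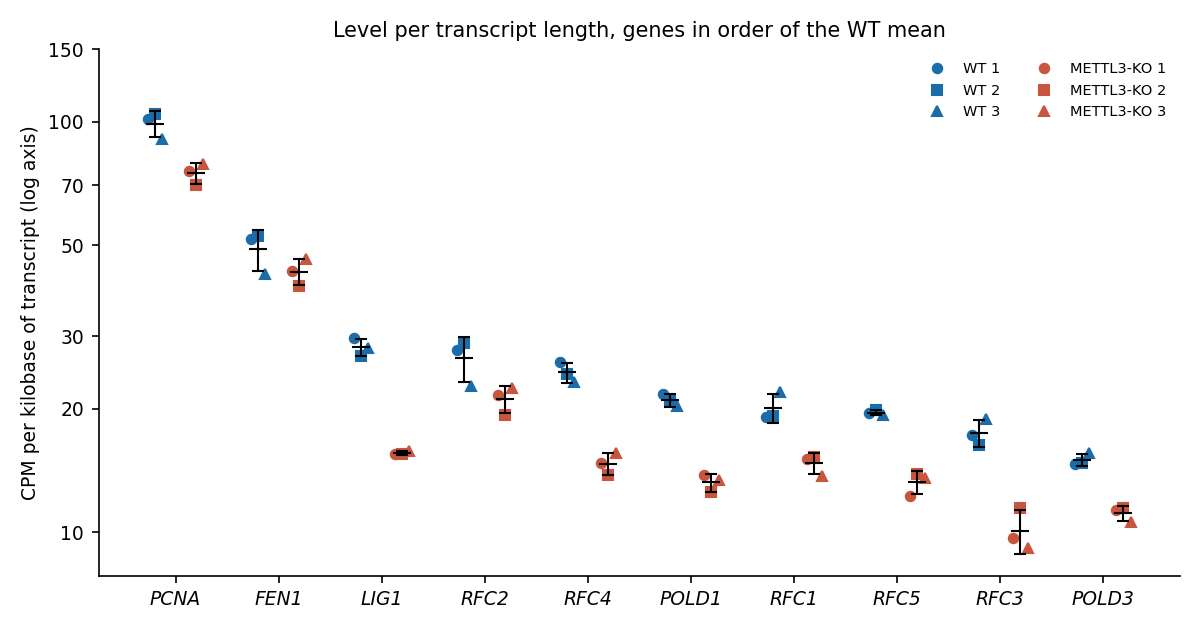
Level of each gene in CPM per kilobase of principal transcript (log axis), in every WT (blue) and METTL3-KO (red) library, with the mean ± SD (n = 3). PCNA is highest in both groups, and LIG1 goes from 28.2 CPM per kilobase in WT to 15.6 in METTL3-KO while FEN1 goes from 49.0 to 43.1.

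The libraries numbered 3 stood apart from the others of their group. Over all genes, chi-square per gene was 2.58 between WT libraries 1 and 2 and 2.34 between METTL3-KO libraries 1 and 2, but 8.32 to 23.1 where a library 3 was in the pair. In WT library 3, RFC2 was at -0.32, FEN1 at -0.29 and PCNA at -0.18 on the log2 CPM scale against the mean of WT libraries 1 and 2, while RFC1 was at 0.20 and RFC3 at 0.17. In METTL3-KO library 3 all 10 genes deviated in the opposite direction, with FEN1 at 0.16, RFC2 at 0.14, PCNA at 0.12, RFC1 at -0.14 and RFC3 at -0.20. The 3 genes with the lowest WT library 3 values have transcripts of 1276 to 2016 bases, and RFC1 has the longest of the 10, 4870 bases, but RFC3 has 2306 bases.

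**Figure D3:**
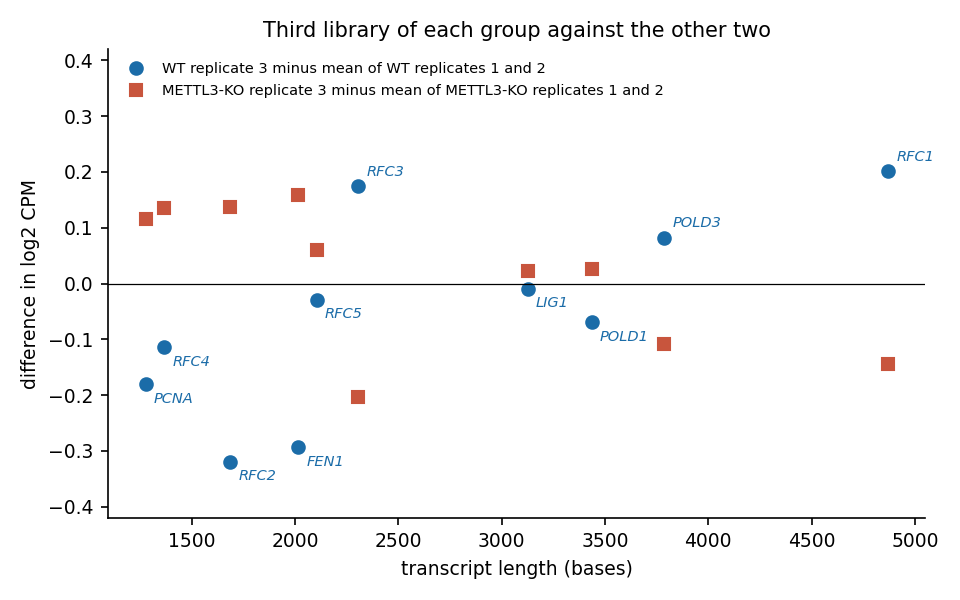
Deviation of the third library of each group from the mean of the other two (log2 CPM) against transcript length in bases, for the 10 genes, with WT in blue and METTL3-KO in red. Each gene has its 2 points on opposite sides of 0, and the WT points go from -0.32 for RFC2 (1685 bases) to 0.20 for RFC1 (4870 bases).

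A correction for transcript length and GC content, fitted over the 9425 genes (91.3%) above the level of 3 on the log2 CPM scale with a known length, lowered the coefficient of variation among WT libraries for 7 of the 10 genes and among METTL3-KO libraries for 6. After it, the groups of all 10 genes were separate and all 10 were called lower. FEN1 kept its value (-0.17) with a smaller error, LIG1 was at -0.88 and PCNA at -0.34. With the replicate number as a block beside this correction, 9 of the 10 were called, and FEN1 (-0.17) was not. Without both libraries numbered 3, RFC2 was at -0.47, PCNA at -0.50, RFC4 at -0.82, RFC3 at -0.68 and RFC1 at -0.33.

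**Figure D4:**
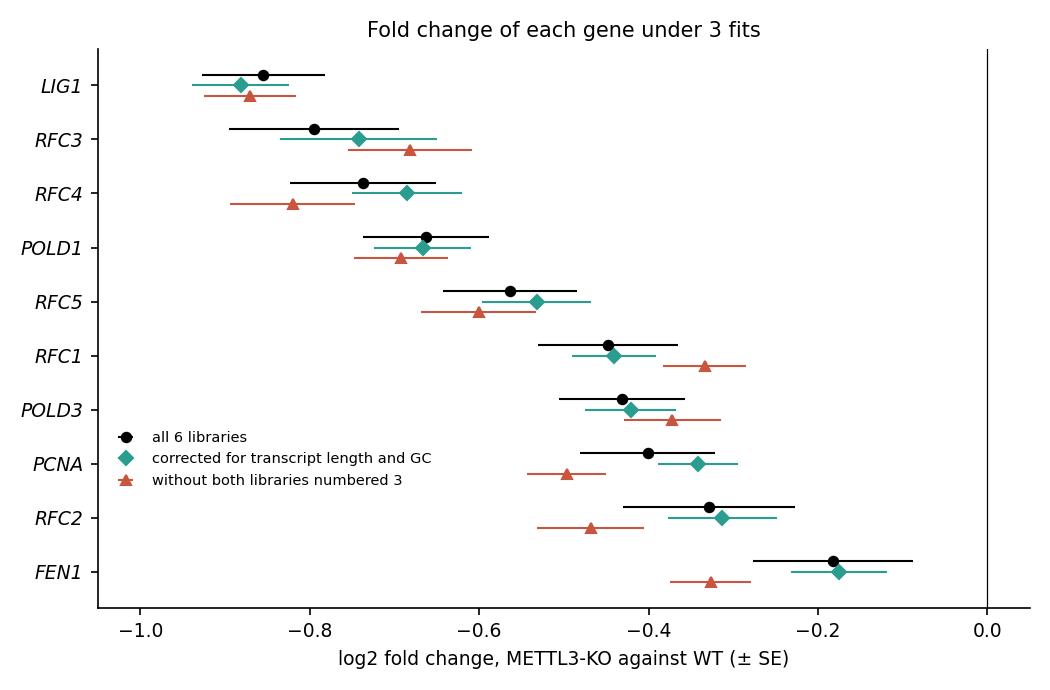
Log2 fold change of each gene in METTL3-KO against WT (± SE), with all 6 libraries in black, after correction for transcript length and GC in green, and without both libraries numbered 3 in red. All points lie below 0, and FEN1 is the nearest to 0 in each fit.

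The other genes of the same pathway were taken from lists of 64 genes, all of them tested. Of these, 32 (50%) fell, 3 (4.69%) rose and 29 did not pass, with a median log2 fold change of -0.30. Over all genes tested, 13.2% were called lower and 13.3% higher, with a median of -0.02. Among genes with a mean above 3 on the log2 CPM scale, 20.7% were called lower and 20.1% higher, though not all of the 64 reach that level. The adjusted p-values in the following paragraphs are from edgeR's quasi-likelihood test over all genes.

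Among the other polymerase genes, 3 of 4 of the alpha-primase complex, which lays down each primer, fell. They were PRIM1 (-0.68 ± 0.0953, adjusted p = 0.000272), POLA2 (-0.64 ± 0.0757, adjusted p = 8.58e-05) and POLA1 (-0.47 ± 0.139, adjusted p = 0.0256), and PRIM2 was at -0.17 (adjusted p = 0.287). POLA1 no longer passed without METTL3-KO library 1 (adjusted p = 0.0518) or 3 (adjusted p = 0.093). Without both libraries numbered 3 POLA1 was at -0.20 (adjusted p = 0.0388), while PRIM1 was at -0.64 and POLA2 at -0.68. Of DNA polymerase epsilon, the leading strand enzyme, 3 of 4 fell. POLE itself was at -0.48 ± 0.0851 (adjusted p = 0.00136) and POLE4 at -0.42 (adjusted p = 0.0144), while POLE3 was at -0.18 (adjusted p = 0.105). POLE3 passed without WT library 3 (-0.22, adjusted p = 0.0163), without both libraries numbered 3 (-0.26, adjusted p = 1.07e-05) and after the length correction (adjusted p = 0.0188). POLE4 did not pass without WT library 1 (adjusted p = 0.0708), METTL3-KO library 1 (adjusted p = 0.0718) or METTL3-KO library 2 (adjusted p = 0.0679). POLE2 was at -0.32 (adjusted p = 0.0435) and passed in none of the fits that leave out 1 library (adjusted p 0.0612 to 0.131), nor with the length correction (adjusted p = 0.0957).

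Of 4 further proteins of polymerase delta, 1 fell and 1 rose. POLD2, the subunit that joins POLD1 and POLD3, was at 140 ± 10.6 CPM in WT and 126 ± 10.8 CPM in METTL3-KO, with a log2 fold change of -0.15 (adjusted p = 0.242). It passed without WT library 3 (-0.19, adjusted p = 0.0411), without both libraries numbered 3 (-0.27, adjusted p = 1.49e-06) and after the length correction (adjusted p = 0.0415), and was at -0.09 without WT library 1 (adjusted p = 0.559). The small subunit POLD4 rose from 7.06 to 9.06 CPM (0.35 ± 0.118, adjusted p = 0.0437), but did not pass without WT library 1 or 2 or METTL3-KO library 2 or 3 (adjusted p 0.0773 to 0.15) or in DESeq2's test (adjusted p = 0.0619). Among the interacting proteins, POLDIP2 fell (-0.46 ± 0.0796, adjusted p = 0.00118) and POLDIP3 was at -0.02 (adjusted p = 0.894). Of replication protein A, which coats single-stranded DNA, RPA1 fell (-0.38 ± 0.0710, adjusted p = 0.00179), as did RPA2 (-0.26, adjusted p = 0.0405), and RPA3 was at -0.27 (adjusted p = 0.146). RPA3 passed without WT library 3 (-0.37, adjusted p = 0.00945), without METTL3-KO library 3 (-0.39, adjusted p = 0.0478), without both (-0.49, adjusted p = 6.52e-07) and with no filter on low counts (adjusted p = 0.0481), and was at -0.15 without WT library 1 (adjusted p = 0.456). RPA2 did not pass without library 1 or 2 of either group (adjusted p 0.132 to 0.165).

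RFC2 to RFC5 also serve in other loaders, and of 9 genes for those loaders and the checkpoint clamp 3 fell. The large subunits CHTF18 (-0.71 ± 0.0975, adjusted p = 0.000242) and ATAD5 (-0.75 ± 0.154, adjusted p = 0.00336) fell, and so did DSCC1 (-0.85 ± 0.0971, adjusted p = 6.81e-05), a partner of CHTF18. Without both libraries numbered 3, ATAD5 was at -0.48, CHTF18 at -0.84 and DSCC1 at -0.94, and all of them passed. ATAD5 unloads PCNA after ligation. CHTF8, the other partner of CHTF18, was at 0.04 (adjusted p = 0.704). RAD17, which loads the checkpoint clamp, was at 37.8 CPM in WT and 37.7 CPM in METTL3-KO (adjusted p = 0.974), and no gene of that clamp passed. RAD17 was named after its value was seen.

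Of 7 other nucleases for primers and flaps, 5 fell and 1 rose. EXO1, a 5′ exonuclease of the same family as FEN1, was at -0.71 ± 0.10 (adjusted p = 0.000281) and GEN1, of that family too, at -0.69 ± 0.115 (adjusted p = 0.000862). Without both libraries numbered 3, GEN1 was at -0.50 and EXO1 at -0.76, and both passed. DNA2, which cuts long flaps, fell by 0.58 ± 0.103 (adjusted p = 0.00134), RNASEH2A by 0.54 ± 0.0914 (adjusted p = 0.00104), and RNASEH2B by 0.42 ± 0.0989 (adjusted p = 0.00742). RNASEH1 rose by 0.41 ± 0.121 (adjusted p = 0.027), and did not pass without library 1 or 2 of either group (adjusted p 0.0612 to 0.139). DNA2, RNASEH2B and RNASEH1 were named after their values were seen.

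LIG3, the other ligase that can seal such nicks, was at 91.5 ± 7.58 CPM in WT and 87.1 ± 4.66 CPM in METTL3-KO (-0.07, adjusted p = 0.575). LIG4, the end-joining ligase, was at 0.18 (adjusted p = 0.175) and was also named after its value was seen. The 2 genes of that list that fell were PARP1 (-0.44 ± 0.0663, adjusted p = 0.000445), which senses nicks, and XRCC1 (-0.41 ± 0.0866, adjusted p = 0.00382), the partner of LIG3.

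Of 16 genes for proteins that bind PCNA, 10 fell and 1 rose. TIMELESS, a fork protection factor, went from 85.7 ± 4.13 to 44.8 ± 1.71 CPM (-0.94 ± 0.0747, adjusted p = 5.94e-06). PCLAF, listed under its older symbol KIAA0101, was at -0.85 ± 0.0891 (adjusted p = 3.83e-05) and DNMT1, the maintenance DNA methyltransferase, at -0.63 ± 0.0778 (adjusted p = 0.000113). The gene that rose was CDKN1A, the p21 inhibitor of CDKs and of PCNA, which went from 14.5 ± 1.20 to 25.9 ± 3.45 CPM (0.83 ± 0.113, adjusted p = 0.000229) and was named after its values were seen. Among 11 genes for the modification of PCNA, 3 fell and 8 did not pass. Those that fell were USP1, which removes ubiquitin from PCNA (-0.47 ± 0.0717, adjusted p = 0.000527), RAD18, the ligase that attaches it (-0.41 ± 0.0826, adjusted p = 0.00308), and UBE2N (-0.30 ± 0.0835, adjusted p = 0.0197). UBE2N did not pass without library 1 or 2 of either group (adjusted p 0.0672 to 0.111), and UBE2V2, its partner, was at 0.16 (adjusted p = 0.128).

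**Figure D5:**
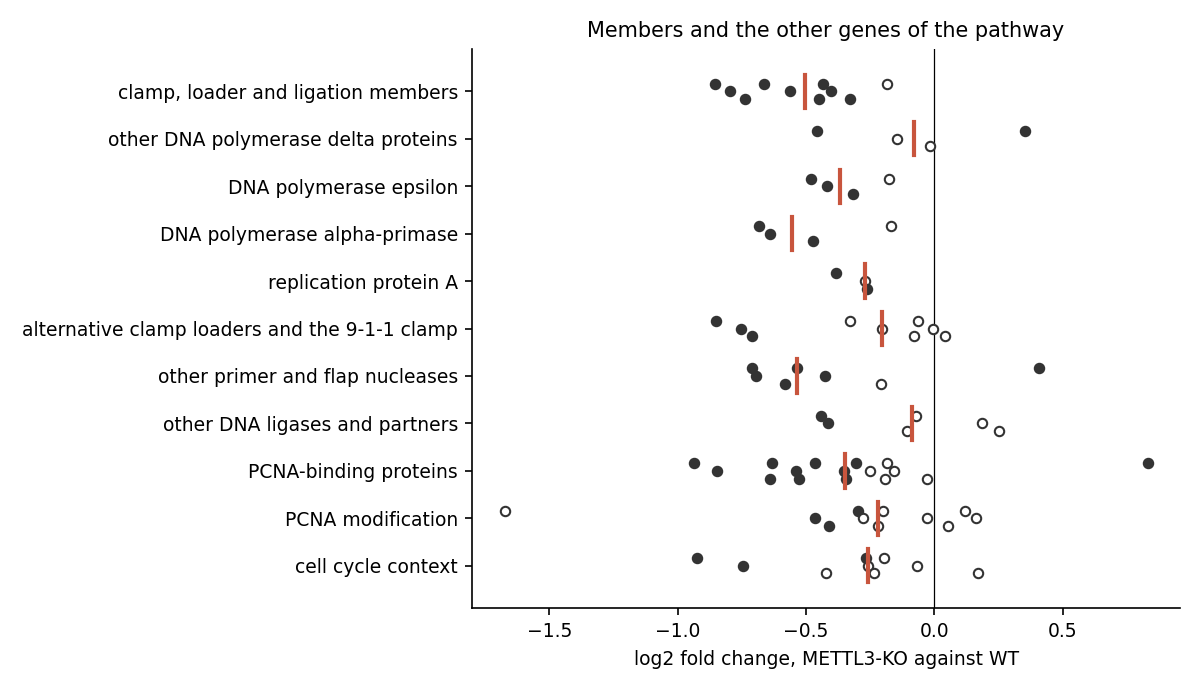
Log2 fold change in METTL3-KO against WT of each gene in the pathway lists, by list, with the 10 genes in the top row and the proliferation genes in the bottom row; filled points passed an adjusted p of 0.05, open points did not, and the red bar is the median of the row. Of the 64 other genes 32 fell and 3 rose, and the lowest point, HLTF (-1.67), has a mean of 0.226 CPM in WT and was not called (named after its value was seen).

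Markers of proliferation were given beside these because the number of cells in S phase was not measured. Of 9 such genes, 3 fell, namely TOP2A (-0.93 ± 0.0936, adjusted p = 2.94e-05), CDK1 (-0.75 ± 0.0697, adjusted p = 1.67e-05) and CCNA2 (-0.26 ± 0.0776, adjusted p = 0.0246). MKI67 was at -0.42 ± 0.150 (adjusted p = 0.0565) and differed widely between libraries, passing without WT library 2 (-0.53, adjusted p = 0.0284), in DESeq2's test (adjusted p = 0.0281) and after the length correction (adjusted p = 8.64e-05), and standing at -0.10 without both libraries numbered 3 (adjusted p = 0.0368). CCNA2 did not pass without METTL3-KO library 1 (adjusted p = 0.1) or 2 (adjusted p = 0.114). PLK1 was at -0.07 (adjusted p = 0.528) and CCNE1 at 0.17 (adjusted p = 0.334), and CCNA2, PLK1 and CCNE1 were named after their values were seen. Their part in the levels of the 10 genes was not tested.

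Over 9849 genes with a mean of at least 10 CPM, the genes whose centred log2 CPM over the 6 libraries lay nearest to the mean of the 10 were U2AF2, ARFGAP2, CDAN1, NASP and CENPH. Their root mean square distances were 0.0206 to 0.0254 on the log2 scale. The 10 genes themselves ranked from 126 (RFC5) to 2550 (FEN1) on that measure, so many genes outside the set were nearer to the mean than any of them.

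Where exons are shared, some counts could include reads of another gene or lack reads set aside as ambiguous. Which of these applies depends on the strand setting of the counting, which is not given. The kit does not mark strand, and RFC5 shares 186 exon bases (5.73% of its exons) with WSB2 and RFC4 shares 18 with EIF4A2, both on the opposite strand. FEN1 shares 49 exon bases with FADS2, which had at most 10 counts, and 8.63% of the exon bases of POLD1 lie in an overlapping readthrough gene on the same strand. LIG1 shares 425 exon bases (3.745%) with a long noncoding RNA gene on the opposite strand, and RFC5 shares 160 with another. POLD3 shares 123 exon bases (2.24%) with the noncoding gene LIPT2-AS1 on the same strand.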

How the data were processed

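Reads of 6 paired-end libraries (3 WT, 3 METTL3-KO) were mapped by the authors to hg19/GRCh37 with TopHat 2.0.11 and counted per gene with HTSeq in union mode. Each deposited file holds 1 sample's unnormalized counts by symbol, and no strand setting is given in the sources used here. Library totals were 20936091 to 30142144 counts. Rows that name no gene stayed out of totals and tests. Relative to these totals plus those rows, reads outside any gene were 6.03 to 9.08%, ambiguous reads 7.95 to 8.77% and reads not mapped uniquely 13.4 to 14.7%.

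Genes with at least 5 counts summed over the WT or over the METTL3-KO libraries (22452) were fitted in edgeR 4.0.16 (R 4.3.3). The settings were TMM scaling, the quasi-likelihood test, Benjamini-Hochberg adjustment over all genes and a threshold of 0.05. Alternatives were RLE scaling, 2 other filters, DESeq2 1.42.0 and the replicate number as a block. Others were a spline correction for transcript length and GC (5 degrees of freedom), this correction with the block, and leaving out each library. Leaving out both libraries numbered 3 and using all exons as the length were added after seeing the data. The edgeR fit and the length part of the correction were tested on simulated data. The simulation held no GC effect, so the GC part was not tested, and neither were the other steps.

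The 10 genes and all lists were chosen with earlier results of these data known. Other genes named are METTL3 and, per list, the 2 with the highest WT level and the 2 called genes with the largest change (every gene in lists of 4 or fewer), plus the 5 genes most like the set. Genes outside this rule are said in the text to have been named after their values were seen. Lengths and overlaps come from the GENCODE annotation on GRCh37 and promoter windows from RefSeq (GRCh38.p14). No protein sequence was used here.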

Additional observations from a re-analysis of the deposited data

How the results depend on the processing

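All 10 genes were lower in METTL3-KO under every alternative run, and 8 to 10 of them were called, with 8 to 10 as the range when each library was left out. With 3 libraries a group, from 1 clone as far as the methods say, small differences such as that of FEN1 turn on single libraries. Over all genes, the count called lower went from 2959 to 1719 with the replicate block and 4823 without both libraries numbered 3, and the count called higher from 2986 to 1810 and 4555. Of the other pathway genes called higher, 1 remained with the block, and 1 to 4 were called when each library was left out. With the block 22 of the 64 fell and RFC2 was not called. The deviations of same-numbered libraries correlated at -0.585, -0.39 and -0.783, and no library correlated best with its own number. Because the libraries numbered 3 deviated in opposite directions in WT and METTL3-KO, these correlations cannot show whether the numbers pair the samples. The ratio of the highest to the lowest WT level per kilobase was 7.43 with coding length and 11.6 with all exons. When each library was left out, POLDIP3 ranged from -0.0375 to 0.0084 (above 0 without WT library 2, at 0.0031, or METTL3-KO library 2) and LIG3 from -0.1211 to 0.0001 (above 0 without WT library 3), each passing in none of these fits, and the cause was not tested.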
